A study of Mus musculus with 6 samples.

Results

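Neutrophil granule genes code for the peroxidase, proteases and antimicrobial proteins that neutrophils store in granules, and here also for both chains of calprotectin, an abundant protein of the neutrophil cytosol. The 10 genes S100a8, S100a9, Mpo, Elane, Prtn3, Ctsg, Ngp, Camp, Ltf and Lcn2 were selected by name from the 48440 genes of the count table, and all 10 were found in it. They were chosen from earlier results of these data, for their counts in the sample titled ctrl-3 against the other 5 samples, as a sign of marrow in ossified tissue. Their level in ctrl-3 is therefore described without a test.

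The study describes the RNA as that of mouse tissue around cartilage engineered from rabbit bone marrow stromal cells. This cartilage had been placed under the skin of male BALB/c nude mice. By the study's methods, samples were taken with the mouse tissue entangled, and reads were mapped to the mouse genome. Rabbit RNA may thus be in the libraries, and its part in the counts was not tested. The cartilage was wrapped in an electrospun membrane of polycaprolactone and collagen that carried axitinib, an inhibitor of the tyrosine kinases of the VEGF receptors, at 0% or 3% of its mass. The study also had implants without a membrane, but the series names only groups at 0% and 3%, so the samples titled ctrl and labelled untreated were read as the group whose membrane held no drug. On that reading both groups had the rabbit cartilage and the membrane, and both were sampled at 12 weeks. The comparison asks what the drug changed in the tissue around the graft. The 0%-Axitinib group had 3 samples and the 3%-Axitinib group had 3. Nude mice lack a thymus and most T cells but have marrow and neutrophils. Each mouse carried a pair of constructs of the same group, and which mouse gave which sample was not stated, so samples of a group may share a mouse.

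Neutrophils are made in bone marrow, where their precursors fill primary granules first and secondary granules later, and most granule genes are switched off again before the cell leaves for the blood. S100a8 and S100a9 stay active in mature neutrophils and are also found in monocytes. When cartilage turns to bone, vessels enter it and marrow with its blood-forming cells can settle in the cavities.

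The reads on genes numbered 17761968, 16716411 and 18005908 in 0%-Axitinib replicates 1, 2 and 3, and 9225518, 11686084 and 18403795 in 3%-Axitinib replicates 1, 2 and 3. Reads that did not map to the mouse genome made up 5.47%, 3.84% and 14.9% of all reads in the 0%-Axitinib samples and 48.4%, 29.2% and 16.8% in the 3%-Axitinib samples. The sample ctrl-3 is 0%-Axitinib replicate 3. Levels below are in CPM, a gene's reads relative to the reads on genes of its library, after TMM normalization. That step adjusts library size for the make-up of the RNA. A count of 0 allows up to 3 reads, which is 0.157 to 0.330 CPM in the 6 samples, and intervals and limits cover counting error only.

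The 10 genes together took 4.00% of the reads on genes in ctrl-3 (95% exact binomial interval 3.99% to 4.01%). Their share was 0.00425% and 0.00505% in 0%-Axitinib replicates 1 and 2, and 0.0178%, 0.00993% and 0.00523% in 3%-Axitinib replicates 1, 2 and 3. So ctrl-3 stood far above the other 5 samples. Among those 5, 3%-Axitinib replicates 1 and 2 were the highest, and the intervals of 3%-Axitinib replicate 3 (0.00490% to 0.00557%) and 0%-Axitinib replicate 2 (0.00472% to 0.00541%) overlapped. As a share of all reads, mapped or not, 3%-Axitinib replicate 3 (0.00366%) lay below 0%-Axitinib replicate 2 (0.00409%). In such bulk tissue, more cells of a type and more RNA per cell cannot be told apart. Spearman's rho between ctrl-3 and the other libraries over the tested genes was 0.846 to 0.893, and that among the other 5 was 0.909 to 0.978, so ctrl-3 stood apart over all genes as well.

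**Figure D1:**
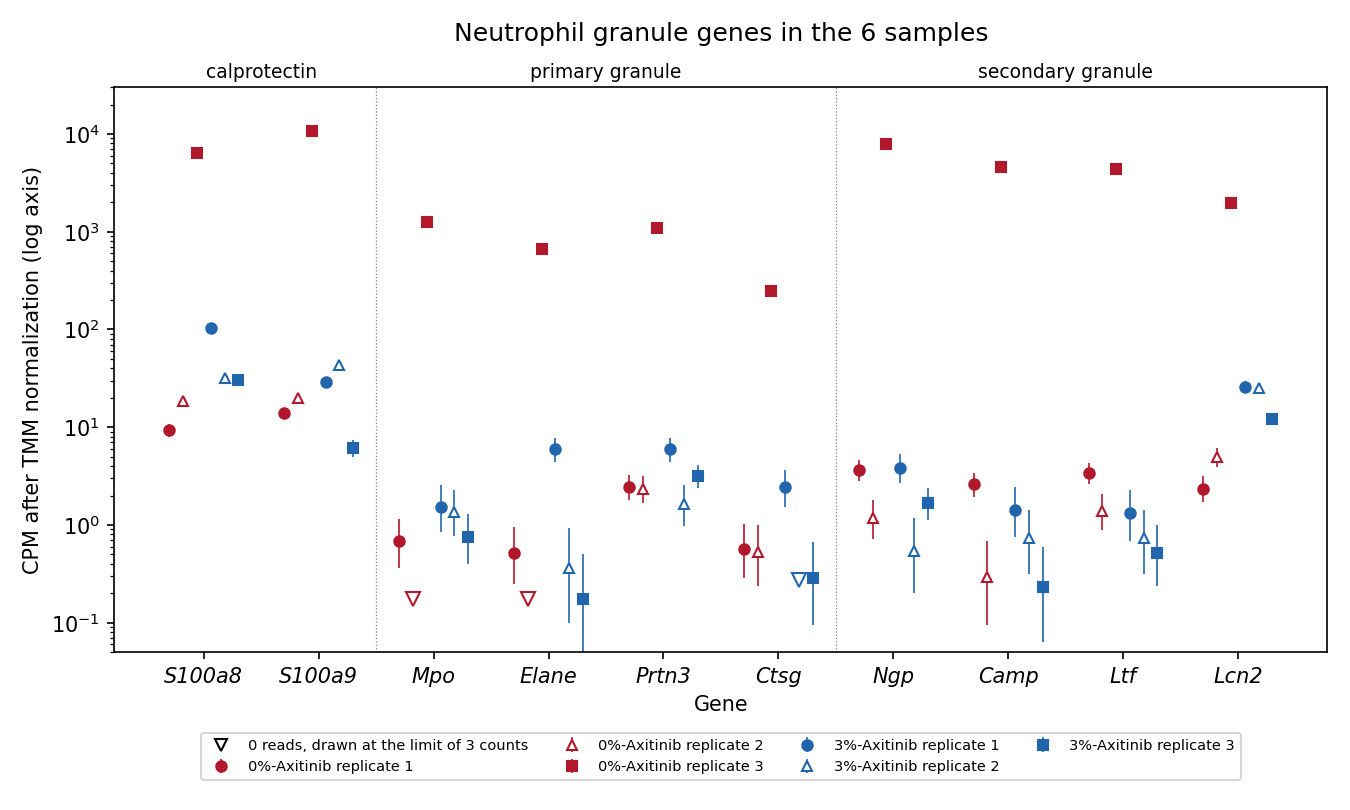
Level of each granule gene in each of the 6 samples, in CPM on a log axis, with 95% Poisson intervals; open downward triangles mark 0 reads, drawn at the limit of 3 counts. In ctrl-3 (0%-Axitinib replicate 3) all 10 genes lie between 246 and 10660.2 CPM, and in the other samples none is above 103 CPM.

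S100a8 and S100a9 code for the chains of calprotectin, which binds calcium, zinc and manganese and signals through Toll-like receptor 4. S100a8 was at 9.29, 18.5 and 6340.0 CPM in 0%-Axitinib replicates 1, 2 and 3 and at 103, 32.3 and 30.5 CPM in 3%-Axitinib replicates 1, 2 and 3. S100a9 was at 13.8, 20.1 and 10660.2 CPM in 0%-Axitinib replicates 1, 2 and 3 and at 29.1, 43.2 and 6.08 CPM in 3%-Axitinib replicates 1, 2 and 3. Both were high in ctrl-3, 61.7-fold above the next sample for S100a8 and 247-fold for S100a9. S100a9 had the highest CPM of all genes in ctrl-3, and per kilobase of exon it again ranked 1 of 43980 genes, with S100a8 at rank 4. Outside ctrl-3, S100a8 was higher in each 3%-Axitinib sample than in the other 0%-Axitinib samples, while S100a9 was lowest in 3%-Axitinib replicate 3 and the groups overlapped.

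The primary granule genes are switched on first. Mpo codes for myeloperoxidase, which makes hypochlorous acid. Mpo was at 0.679, 0 and 1244 CPM in 0%-Axitinib replicates 1, 2 and 3 and at 1.54, 1.37 and 0.753 CPM in 3%-Axitinib replicates 1, 2 and 3. Its 0 reads in 0%-Axitinib replicate 2 allow up to 0.175 CPM. In ctrl-3 it was 808-fold above the next sample, and outside ctrl-3 it had at most 15 reads in a sample.

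Elane codes for neutrophil elastase, a serine protease of the same granule. Elane was at 0.522, 0 and 664 CPM in 0%-Axitinib replicates 1, 2 and 3 and at 5.94, 0.364 and 0.174 CPM in 3%-Axitinib replicates 1, 2 and 3. It was high in ctrl-3, 112-fold above 3%-Axitinib replicate 1, which had 54 reads, and the other 4 samples had 10 reads or fewer. Prtn3 codes for proteinase 3, a close relative of elastase. Prtn3 was at 2.45, 2.33 and 1098 CPM in 0%-Axitinib replicates 1, 2 and 3 and at 5.94, 1.64 and 3.18 CPM in 3%-Axitinib replicates 1, 2 and 3. It was detected in every sample, was 185-fold above the next sample in ctrl-3, and overlapped between the groups outside it. Ctsg codes for cathepsin G, the protease with chymotrypsin-like cleavage. Ctsg was at 0.574, 0.525 and 246 CPM in 0%-Axitinib replicates 1, 2 and 3 and at 2.42, 0 and 0.289 CPM in 3%-Axitinib replicates 1, 2 and 3. It was the lowest of the 10 genes in ctrl-3, both in CPM and per kilobase, and still 102-fold above the next sample there.

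The secondary granule genes follow later in the development of the neutrophil. Ngp codes for neutrophilic granule protein, a cystatin-like protein. Ngp was at 3.65, 1.17 and 7904 CPM in 0%-Axitinib replicates 1, 2 and 3 and at 3.85, 0.547 and 1.68 CPM in 3%-Axitinib replicates 1, 2 and 3. It had the largest step of the 10 genes, 2054-fold from the next sample to ctrl-3. Camp codes for the cathelicidin precursor of an antimicrobial peptide. Camp was at 2.61, 0.292 and 4576 CPM in 0%-Axitinib replicates 1, 2 and 3 and at 1.43, 0.729 and 0.232 CPM in 3%-Axitinib replicates 1, 2 and 3. It was 1753-fold above the next sample in ctrl-3, and had 50 reads or fewer in each of the others.

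Ltf codes for lactoferrin, which binds iron. Ltf was at 3.39, 1.40 and 4379 CPM in 0%-Axitinib replicates 1, 2 and 3 and at 1.32, 0.729 and 0.521 CPM in 3%-Axitinib replicates 1, 2 and 3. It was 1291-fold above the next sample in ctrl-3, and it was the member whose 3%-Axitinib samples all lay below all 0%-Axitinib samples, with ctrl-3 or without it. Lcn2 codes for lipocalin 2, which binds the iron carriers of bacteria and is also made by epithelia, fat and other tissues under inflammation. Lcn2 was at 2.35, 4.96 and 1988 CPM in 0%-Axitinib replicates 1, 2 and 3 and at 26.0, 25.0 and 12.3 CPM in 3%-Axitinib replicates 1, 2 and 3. It was 76.6-fold above the next sample in ctrl-3, and outside ctrl-3 every 3%-Axitinib sample lay above both 0%-Axitinib samples.

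The same step was counted over all genes, with no sample taken below its own limit for 0 reads. Of the 15257 genes tested, 4320 (28.3%) were highest in ctrl-3, with 9 of the 9 granule genes tested, and of the 14605 genes with a mean of at least 1 CPM, 4271 (29.2%) were, with 10 of the 10. These are the shares beside which the counts of genes highest in ctrl-3 in the gene lists stand. Of 15257 genes tested, 119 (0.780%) were at least 10-fold higher in ctrl-3 than in any other sample, and these included 9 of the 9 granule genes tested. Elane did not pass the filter on low counts, so a second set was also counted: of the genes with that mean, 206 (1.41%) met the same fold, among them 10 of the 10 granule genes. The fold of 10, the limit for 0 reads, the count of genes highest in ctrl-3 and the second set were chosen after the values were seen, and since ctrl-3 chose the genes, nothing is read from these counts. By the size of the fold in the second set, Ngp, Camp and Ltf ranked 1, 2 and 3, Mpo ranked 5 and S100a8, the lowest, ranked 51. The median log2 excess of ctrl-3 over the highest other sample was 7.94 for the 9 tested granule genes and −0.48 for all tested genes. With Elane added at its own value, the median over the 10 was 7.72.

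The make-up of the granule gene reads differed as well. In ctrl-3, secondary granule genes made up 48.2% of the 719844 reads on the 10 genes, calprotectin genes 43.5% and primary granule genes 8.32%. In the other 5 samples, calprotectin genes held 58.8% to 78.3% and secondary granule genes 15.9% to 30.5%, of 754 to 1639 reads. Lcn2 made up most of the secondary reads in the 3%-Axitinib samples: without it, Ngp, Camp and Ltf held 3.66%, 1.89% and 4.37% of the granule gene reads there, 24.5% and 5.80% in 0%-Axitinib replicates 1 and 2, and 43.1% in ctrl-3. The primary granule share was 3.19% to 10.7% there. The calprotectin share was thus lowest in ctrl-3 and the secondary granule share highest, while the primary granule share of ctrl-3 lay within the range of the others.

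**Figure D2:**
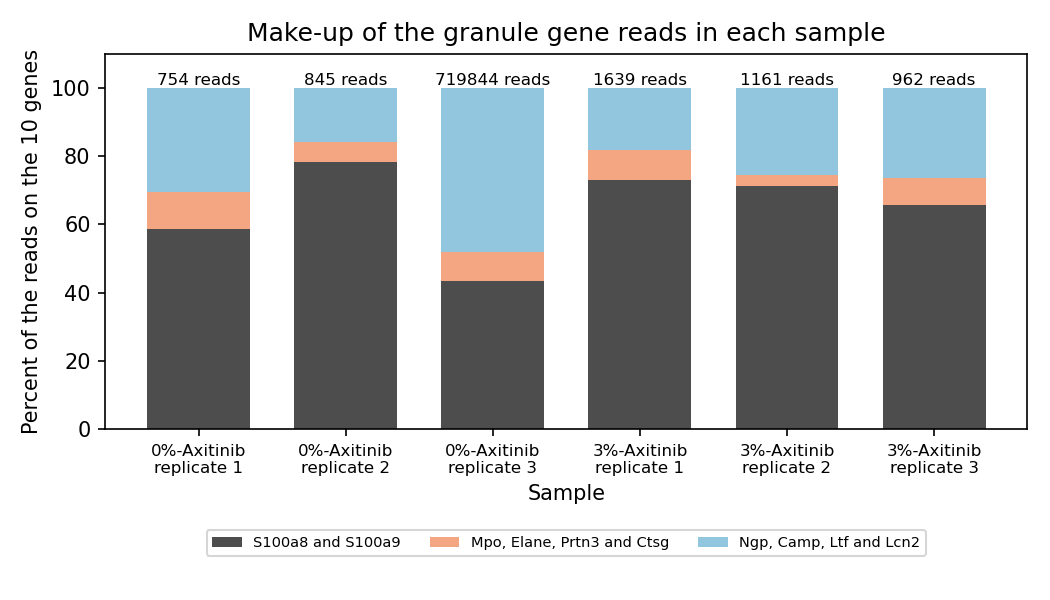
Percent of the reads on the 10 granule genes that fell on calprotectin genes, primary granule genes and secondary granule genes, 1 bar per sample, with the number of reads above each bar. The secondary granule part is largest in ctrl-3 (0%-Axitinib replicate 3), at 48.2%, and the calprotectin part is smallest there, at 43.5%.

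Levels of different genes can be set side by side per kilobase of exon. In ctrl-3 S100a9 was at 20421.9 CPM per kb, S100a8 at 9135 CPM per kb, Ngp at 6468 CPM per kb and Camp at 6037 CPM per kb. Ltf followed at 1269 CPM per kb and Lcn2 at 758 CPM per kb. Among the primary granule genes, Elane was at 674 CPM per kb, Prtn3 at 634 CPM per kb, Mpo at 363 CPM per kb and Ctsg at 239 CPM per kb. All 4 primary granule genes thus lay below the other 6 on this scale in that sample. Counting error separates these neighbours, but with 1 library at this level there is no spread between samples to set them against.

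The label was checked against genes that mark neutrophils. Ly6g, the surface marker of mouse neutrophils, was at 0.470, 0 and 503 CPM (0%-Axitinib) and 0.11, 0.0911 and 0 CPM (3%-Axitinib). Of the 20 mature neutrophil genes, 16 were highest in ctrl-3 (28.3% of all tested genes were) and 11 were at least 10-fold above every other sample, as the granule genes were. The summed level of that list was 877, 937 and 5085 CPM (0%-Axitinib) and 451, 2279 and 932 CPM (3%-Axitinib). Its most abundant gene, Mmp9, is also made by osteoclasts and reached 1884 CPM in 3%-Axitinib replicate 2, above its 1759.9 CPM in ctrl-3. Cxcr2, the chemokine receptor, was at 119 CPM in ctrl-3 and at most 5.83 CPM elsewhere. Il1r2, Clec4d and Cxcr1, named after their values were seen, were not highest in ctrl-3. Il1r2 was at 29.1 CPM there and up to 79.8 CPM elsewhere. Clec4d was at 80.2 CPM and up to 275 CPM elsewhere, and Cxcr1 at 0.978 CPM and up to 9.51 CPM elsewhere.

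Genes of neutrophil precursors were present with the primary granule genes. Ms4a3 was at 0.0522, 0.0583 and 163 CPM (0%-Axitinib) and 0.990, 0 and 0 CPM (3%-Axitinib), and Fcnb, the gene of ficolin B, was at 0.209, 0 and 187 CPM (0%-Axitinib) and 0, 0.0911 and 0 CPM (3%-Axitinib). Outside ctrl-3 neither was above 0.990 CPM. Cebpe, the transcription factor of the secondary granule stage, was at 139.9 CPM in ctrl-3 and at most 1.76 CPM elsewhere. Of the 10 precursor genes, 7 were highest in ctrl-3 and 5 at least 10-fold so, and the list summed to 488, 613 and 1218 CPM (0%-Axitinib) and 302, 310.0 and 371 CPM (3%-Axitinib). Cebpa, its most abundant gene, was not highest in ctrl-3. Of 20 other granule and oxidase genes, 13 were highest in ctrl-3 and 8 at least 10-fold so. The sum of that list, 11573, 13372 and 16102 CPM (0%-Axitinib) and 8572, 11794 and 16867 CPM (3%-Axitinib), did not follow the granule genes, since Lyz2, which macrophages also make, held much of it and was highest in 3%-Axitinib replicate 3.

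Markers of other blood cells moved with the granule genes in ctrl-3. The erythroid genes (18 of the 19 listed were in the table) summed to 473, 425 and 23028 CPM (0%-Axitinib) and 252, 397 and 601 CPM (3%-Axitinib). Hbb-bs, a beta globin gene and the most abundant of them, was at 9949 CPM in ctrl-3, 16 of the 18 were at least 10-fold above every other sample, and 3 to 9 of the 18 had 0 reads in each other sample. The megakaryocyte and platelet genes summed to 124, 75.9 and 1113 CPM (0%-Axitinib) and 186, 251 and 189 CPM (3%-Axitinib), with 13 of 13 highest in ctrl-3 and 10 at least 10-fold so. Pf4, their most abundant gene, was only 1.32-fold above the next sample.

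The B lineage genes summed to 60.1, 38.1 and 350.3 CPM (0%-Axitinib) and 46.5, 54.3 and 40.3 CPM (3%-Axitinib). In ctrl-3, 10 of 14 were at least 10-fold higher, among them Vpreb3 and Vpreb1, the latter of the precursor B cell receptor. Ebf1, the most abundant gene of that list and also a gene of stromal and fat cells, was not highest there. Vpreb2 had 9 reads in ctrl-3 and 0 reads in every other sample. The eosinophil genes summed to 16.0, 14.1 and 657 CPM (0%-Axitinib) and 5.06, 5.83 and 6.48 CPM (3%-Axitinib), with Prg2 at 465 CPM in ctrl-3 and 5 of 9 genes at least 10-fold higher there. Epx, the eosinophil peroxidase gene, had 0 reads in 4 of the 6 samples and was at 50.5 CPM in ctrl-3. The proliferation genes summed to 116, 114 and 1328 CPM (0%-Axitinib) and 37.6, 209 and 66.1 CPM (3%-Axitinib), with 12 of 12 highest in ctrl-3 and Mki67 the most abundant. The part of these cells in the level of the granule genes, and that of the unmapped share of ctrl-3, was not tested.

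Other lists moved less with the granule genes. The blood progenitor genes summed to 558, 383 and 605 CPM (0%-Axitinib) and 538, 315 and 503 CPM (3%-Axitinib), with Cd34, which vessels also make, the most abundant. Of these 12 genes, 7 were highest in ctrl-3, Kit at 46.2 CPM among them, and 1 at least 10-fold so, Myb, at 76.8 CPM and 54.9-fold. The marrow stroma genes summed to 730.1, 710.4 and 1649.8 CPM (0%-Axitinib) and 506, 514 and 459 CPM (3%-Axitinib), where Cxcl12, which holds blood-forming cells in marrow, was at 1183 CPM in ctrl-3 and 5 of 9 genes were highest. Lepr, at 17.8 CPM in ctrl-3, was higher in 0%-Axitinib replicate 1 and 3%-Axitinib replicate 2. The mast cell genes summed to 138, 207 and 354 CPM (0%-Axitinib) and 17.5, 16.1 and 75.2 CPM (3%-Axitinib) with Tpsab1 the most abundant, and the endothelial genes to 807, 528 and 982 CPM (0%-Axitinib) and 170.5, 259.9 and 317 CPM (3%-Axitinib) with Pecam1 the most abundant. Of these, 8 of 11 mast cell genes and 7 of 10 endothelial genes were highest in ctrl-3, as were 28.3% of all tested genes, and 0 of either list were at least 10-fold so. Both sums were lower in each 3%-Axitinib sample than in any 0%-Axitinib sample.

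The sums of bone genes did not follow the granule genes. The osteoblast and osteocyte genes summed to 8538, 4786 and 5192 CPM (0%-Axitinib) and 9793, 49778 and 13682 CPM (3%-Axitinib), so that 3%-Axitinib replicate 2 was highest, with few granule gene reads, and ctrl-3 was among the lowest. Col1a1, also a gene of fibroblasts, was the most abundant of them, and 2 of the 14 genes, Bglap and Bglap2 for osteocalcin, were highest in ctrl-3. Col1a1 was at 7130, 3236 and 3181 CPM (0%-Axitinib), and the lower sum of ctrl-3 than of 0%-Axitinib replicate 1 rests on it. Within the 0%-Axitinib group, ctrl-3 was highest for every gene of the list except Col1a1, Spp1 and Bglap3. Bglap was at 5.32, 1.22 and 111 CPM (0%-Axitinib) and 0.550, 26.4 and 21.5 CPM (3%-Axitinib). The osteoclast genes summed to 6155, 7516 and 7514 CPM (0%-Axitinib) and 4044, 8995 and 6148 CPM (3%-Axitinib), with Ctsk the most abundant and 4 of 11 genes highest in ctrl-3.

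The remaining cell lists also differed from the granule genes. The macrophage genes, led by Cd68, were lowest in ctrl-3 at 2881 CPM against 3338 to 4974 CPM elsewhere. The monocyte genes, led by Fn1, which fibroblasts also make, were lowest there too, at 2473 CPM against 3916 to 7437 CPM, although 7 of the 10 were highest in ctrl-3. The pan leukocyte genes, led by Laptm5, were at 5563 CPM in ctrl-3 and 2246 to 5627 CPM elsewhere. Epidermis genes, led by Krt1, were high only in 0%-Axitinib replicate 2, at 1065 CPM against 4.12 to 10.6 CPM. Skeletal muscle genes, led by Acta1, were high in 3%-Axitinib replicates 1 and 3, at 15292 and 8649 CPM, and at 10.8 CPM in ctrl-3. None of the 14 epidermis and 12 muscle genes was highest in ctrl-3, where the granule genes were.

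**Figure D3:**
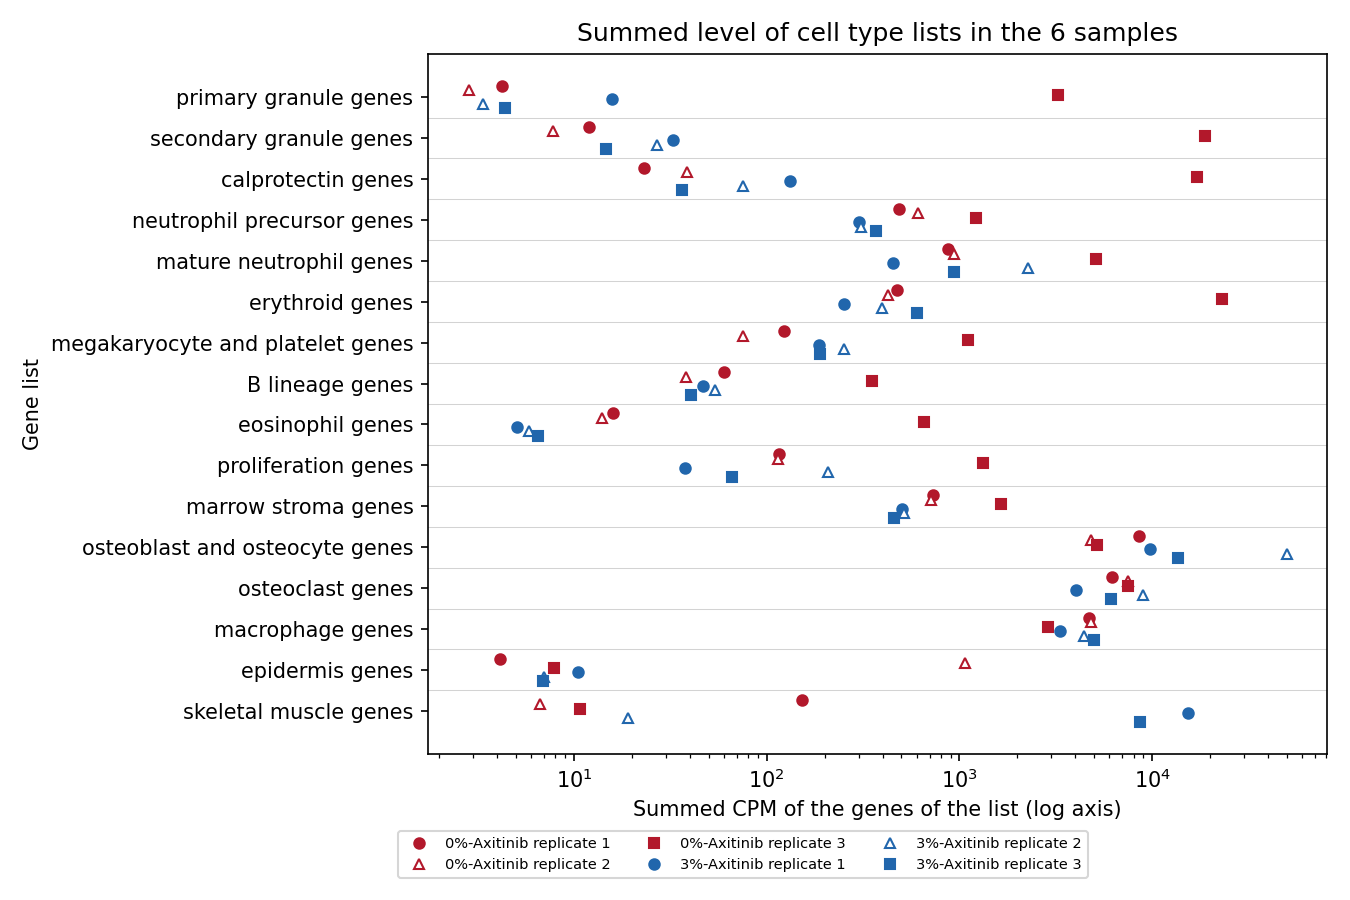
Summed level of the genes of each list in each of the 6 samples, in CPM on a log axis, 1 point per sample. The granule, erythroid, eosinophil, B lineage and proliferation lists are highest in ctrl-3 (0%-Axitinib replicate 3), and the osteoblast list is highest in 3%-Axitinib replicate 2, at 49778 CPM.

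Between the groups, edgeR's quasi-likelihood test was fitted on 15257 genes, and 9 of the 10 granule genes entered it. The criterion of the study, a fold of at least 1.5 with an unadjusted p of at most 0.05, was met in the lower direction by 1785 genes (11.7%) and by 7 of the 9 granule genes. In either direction, it was met by 10 of 10 granule genes without 0%-Axitinib replicate 1 or 2, by 3 without ctrl-3, by 1 without 3%-Axitinib replicate 1 and by 0 without 3%-Axitinib replicate 2 or 3. At an adjusted p of at most 0.05, 0 genes (0%) were lower in edgeR and 0 of the 9 granule genes were, while 7 of the 9 were lower at an unadjusted p of at most 0.05, as were 12.9% of all tested genes (23.5% had such a p in either direction, and the same 7 of the 9 did). limma-voom put 0 of the 9 past the criterion or an adjusted p of 0.05, and DESeq2 gave no p for any of the 9. The 1 gene past an adjusted p of 0.05 in edgeR was Nr1d1, named after its values were seen. The log2 fold changes of the 9 ran from −10.97 for Camp (SE 3.67, adjusted p 0.148) to −4.98 for Lcn2 (SE 2.32, adjusted p 0.244), with a median of −7.09 against −0.03 for all tested genes. For Ltf, 1 of the 9, the groups did not overlap and the 3%-Axitinib samples were the lower ones, as for 16.6% of all tested genes. Because this contrast holds ctrl-3, which chose the genes, nothing is read from it. Without ctrl-3 the median of the 9 was 0.61, so its sign rests on that 1 library.

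The comparison that does not use ctrl-3 sets 2 samples of the 0%-Axitinib group against 3 of the 3%-Axitinib group, over 15690 tested genes. At an adjusted p of at most 0.05, 1252 genes (7.98%) differed, and 1 of the 9 granule genes tested did, which is close to the share of all genes. That count over all genes fell to 6 when 0%-Axitinib replicate 1 was also left out, and to 0 when 0%-Axitinib replicate 2 or 3%-Axitinib replicate 1 or 3 was. Lcn2 rose by a log2 fold of 2.52 (SE 0.49, edgeR adjusted p 0.0433), with all 3 of the 3%-Axitinib samples above both others. This call is near the threshold: the adjusted p was 1.48e-05 in DESeq2 and 0.0518 in limma-voom, and it ran from 0.0400 without 3%-Axitinib replicate 2 to 0.281 without 0%-Axitinib replicate 2. S100a8 had a log2 fold of 1.98 (SE 0.65, edgeR adjusted p 0.0953) in the same direction and did not pass in edgeR. S100a8 passed in DESeq2 (adjusted p 0.00839) and in edgeR with no filter (adjusted p 0.0417), and missed in the other 10 alternatives, with an adjusted p of 0.0627 to 0.309. Ltf had −1.52 (SE 0.61, edgeR adjusted p 0.138) and did not pass either. On leaving out 1 more sample, the log2 fold ran from 2.08 to 3.14 for Lcn2, from 1.17 to 2.55 for S100a8 and from −2.02 to −0.74 for Ltf.

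By the criterion of fold and unadjusted p, 2 of the 9 granule genes were higher without ctrl-3 (S100a8 and Lcn2), against 14.5% of all tested genes, and 1 was lower (Ltf), against 13.7%. For S100a8, Mpo and Lcn2, 3 of the 9, all 3%-Axitinib samples lay above the 2 others, against 26.5% of all genes, and for Ltf, 1 of the 9, all lay below them, against 27.3%. With 9 genes these counts are small, and nothing particular to the granule genes is read from them. The log2 folds of S100a9, Mpo, Prtn3 and Ctsg were 0.61, 1.76, 0.57 and 0.61, and those of Ngp and Camp were −0.28 and −0.94, all with an edgeR adjusted p of 0.304 to 0.839. These values shift with single libraries: S100a9 was at 0.03 without 3%-Axitinib replicate 2, and Prtn3 at 0.02 without 3%-Axitinib replicate 1. Mpo was at 7.04 without 0%-Axitinib replicate 1, a fitted value that is no bound, since the 0%-Axitinib sample then left had 0 Mpo reads. Ngp and Camp changed sign when 0%-Axitinib replicate 1 was left out, to 0.77 and 1.36, and Ngp also without 3%-Axitinib replicate 2, to 0.16. Elane had too few reads to enter this comparison. The 3%-Axitinib samples also had the higher unmapped shares, and 2 of the 3 had the muscle genes, and for Lcn2 the group and the unmapped share cannot be told apart. In 3%-Axitinib replicate 2, where the muscle genes summed to 19.1 CPM, Lcn2 was at 25.0 CPM. The part of muscle in the level of Lcn2 was not tested.

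Genes that draw neutrophils or act on granule proteins were counted from lists. Of 17 recruitment and growth factor genes, 6 of the 13 tested met the criterion in the lower direction and 0 in the higher, against 11.7% and 9.54% of all tested genes. Without ctrl-3, 3 met it in the lower direction and 0 in the higher, against 13.7% and 14.5%. In ctrl-3, 9 of the 17 were highest and 2 at least 10-fold so, Ppbp at 264 CPM and Cxcr2. Ppbp is also in the platelet list and Cxcr2 in the mature neutrophil list, so both were counted before. The sum of the 17 was 668, 699 and 2149 CPM (0%-Axitinib) and 482, 369.5 and 384 CPM (3%-Axitinib), with Cxcl12 the most abundant. Of the neutrophil chemokines, Cxcl1 and Cxcl2 were at 1.47 and 3.64 CPM in ctrl-3 and higher in most other samples, while of Cxcl3 and Cxcl5, named after their values were seen, Cxcl3 was at 0.923 CPM in ctrl-3 and up to 9.79 CPM elsewhere, and Cxcl5 was at 9.23 CPM, 1.29-fold above the next sample. Of 15 genes listed as receptors and inhibitors of granule proteins, 3 met the criterion in the lower and 4 in the higher direction with all 6 samples. Without ctrl-3, 3 met it in each direction, and the shares of all tested genes are those given for the previous list. The list also holds Ctsc, for the protease cathepsin C, which is neither and is named for that reason. Ctsc was among the lower genes in both counts. In ctrl-3, 5 of the 15 were highest, and 2 of them, Fpr2 (32.6-fold) and Serpinb1a (10.6-fold), named after their values were seen, were at least 10-fold so. Fpr2 is also in the mature neutrophil list and Serpinb1a in the list of other granule and oxidase genes. Lrp1, a receptor that clears protease and inhibitor complexes and lactoferrin, was the most abundant of the 15. It was at 2624, 3643 and 519 CPM (0%-Axitinib) and 2051, 1839 and 2454 CPM (3%-Axitinib). It was lowest in ctrl-3, where the granule genes were highest, and the list summed to 1774 CPM there against 3618 to 5164 CPM elsewhere. Tlr4, the calprotectin receptor, was lowest there as well, at 20.3 CPM.

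The genes most like the granule genes over the 6 samples were found by Pearson's r with the mean log2 CPM of the 9 tested ones, among 14595 other genes with a mean of at least 1 CPM. The 10 highest were Pklr, I830127L07Rik, Gpr18, Ing2, 1200014J11Rik, Padi4, Adpgk, 1300017J02Rik, Nfe2 and Ccndbp1, with r from 0.994 to 0.998 (n = 6, a description). Outside ctrl-3, Pklr, I830127L07Rik and 1300017J02Rik had 0 or 1 read in each sample, so their likeness is that of ctrl-3 alone and no r without it is read. For the 7 others, r over the 5 samples without ctrl-3 was 0.743 to 0.946. These genes were picked by an r that includes the same 5 samples, so no likeness outside ctrl-3 is read from it. An r of at least 0.95 over the 6 samples was reached by 309 genes (2.12%). Padi4, the enzyme that citrullinates histones in neutrophils, was at 0.731, 0.292 and 98.8 CPM (0%-Axitinib) and 1.43, 0.364 and 0.463 CPM (3%-Axitinib). Likeness in shape did not mean a like step: Ing2 was 1.77-fold and Nfe2 185-fold above the next sample in ctrl-3.

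On the mouse genome (GRCm38, GENCODE), the 10 genes lie on 6 chromosomes, and several are neighbours. Prtn3 (chr10:79874476-79883174) and Elane (chr10:79886247-79888215) are 3072 bases apart, with no gene between them. S100a8 (chr3:90668978-90670035, plus strand) and S100a9 (chr3:90692632-90695721, minus strand) are 22596 bases apart, with no gene between them either. Camp, Ngp and Ltf share chromosome 9, where 8 and 20 protein-coding genes lie between neighbours. Mpo (chr11:87793581-87804413) overlaps an antisense gene with 0 reads in all 6 samples, and Prtn3 overlaps a protein-coding gene on the other strand, whose name is not in the table. Whether reads were counted by strand was not stated.

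Since the 10 genes were high in the same sample, their promoters are shown for a description of what they share. Promoters of 300 bases, from 250 before to 50 after the start of transcription, came from RefSeq (GRCm38.p6) and matched 10 of 10 genes. The RefSeq start lies 5191 bases inside the GENCODE gene for Prtn3, and 0 to 513 bases inside it for the 9 others; motif positions count from the RefSeq start. The motif TTNNGNAA, a form of the site of the C/EBP factors, and GAGGAA, a form of the PU.1 site, were searched on both strands, together with TATAAA and TGTGGT, a core of the RUNX site. No matches of different motifs overlapped. TTNNGNAA was found in 5 of the 10 promoters (40.7% of all 32851 promoters have it), in 2 of 2 calprotectin genes, 3 of 4 secondary granule genes (Ngp, Ltf and Lcn2) and 0 of 4 primary granule genes. GAGGAA was found in 7 of the 10 (28.3% of all), in 4 of 4 primary granule genes and in S100a8, Ltf and Lcn2. TATAAA was found in 3 (13.6% of all) and TGTGGT in 3 (16.8% of all). A match is a description, and says nothing on binding.

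The promoters of 3 primary granule genes, 2 secondary granule genes and 1 calprotectin gene are given 5′ to 3′ on the strand of the gene, to show where the motifs lie; capitals mark matches of TTNNGNAA and GAGGAA on either strand. They are Elane (chr10:79886062-79886361, plus strand), Prtn3 (chr10:79879417-79879716, plus strand), Mpo (chr11:87793534-87793833, plus strand), Ngp (chr9:110419558-110419857, plus strand), Ltf (chr9:111019042-111019341, plus strand) and S100a8 (chr3:90668821-90669120, plus strand). GAGGAA begins at −85 from the start in Elane, at −95 in Prtn3 and at −247 and −224 in Mpo.
Elane: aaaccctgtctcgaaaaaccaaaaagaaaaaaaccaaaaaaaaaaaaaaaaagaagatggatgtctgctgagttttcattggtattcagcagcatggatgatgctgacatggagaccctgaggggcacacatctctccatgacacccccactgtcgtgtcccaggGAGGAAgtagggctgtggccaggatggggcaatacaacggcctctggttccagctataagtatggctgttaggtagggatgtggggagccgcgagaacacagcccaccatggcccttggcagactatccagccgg
Prtn3: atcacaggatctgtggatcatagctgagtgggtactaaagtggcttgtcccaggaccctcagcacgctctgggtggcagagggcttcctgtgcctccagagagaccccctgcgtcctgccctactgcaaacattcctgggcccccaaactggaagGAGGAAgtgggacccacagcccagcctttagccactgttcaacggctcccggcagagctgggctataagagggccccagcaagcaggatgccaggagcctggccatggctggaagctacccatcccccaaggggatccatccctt
Mpo: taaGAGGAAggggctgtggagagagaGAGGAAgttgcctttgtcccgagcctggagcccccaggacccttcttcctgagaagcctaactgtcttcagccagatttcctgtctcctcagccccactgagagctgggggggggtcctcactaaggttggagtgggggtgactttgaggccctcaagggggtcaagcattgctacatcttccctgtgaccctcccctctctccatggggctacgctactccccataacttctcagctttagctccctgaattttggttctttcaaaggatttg
Ngp: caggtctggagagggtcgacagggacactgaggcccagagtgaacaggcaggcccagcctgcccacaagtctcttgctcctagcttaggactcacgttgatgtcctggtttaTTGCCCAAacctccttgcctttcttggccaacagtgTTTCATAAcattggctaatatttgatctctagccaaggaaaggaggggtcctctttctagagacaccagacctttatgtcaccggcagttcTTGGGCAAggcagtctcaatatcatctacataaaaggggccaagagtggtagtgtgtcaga
Ltf: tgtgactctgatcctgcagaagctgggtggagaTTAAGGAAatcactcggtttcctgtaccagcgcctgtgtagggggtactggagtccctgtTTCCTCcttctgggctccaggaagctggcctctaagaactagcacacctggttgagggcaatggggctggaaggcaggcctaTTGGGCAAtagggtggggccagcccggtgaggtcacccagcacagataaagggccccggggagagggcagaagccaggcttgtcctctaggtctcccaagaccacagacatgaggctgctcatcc
S100a8: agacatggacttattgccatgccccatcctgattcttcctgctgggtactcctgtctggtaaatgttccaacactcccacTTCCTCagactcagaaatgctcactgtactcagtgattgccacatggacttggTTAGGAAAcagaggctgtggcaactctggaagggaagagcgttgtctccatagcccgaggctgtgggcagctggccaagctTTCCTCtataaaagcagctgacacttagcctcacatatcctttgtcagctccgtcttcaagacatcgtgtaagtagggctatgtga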

How the data were processed

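RNA sequencing of 6 samples was used, 3 per group. The deposited table holds raw read counts per gene, which the authors made with STAR 2.5.2b on the mouse genome; 4 lines of reads given to no gene were kept only for shares of all reads. Samples titled ctrl were read as 0%-Axitinib, from the protocol and the labels. Genes were filtered by filterByExpr (minimum count 10, total 15), normalized by TMM and tested with edgeR 4.0.16 (R 4.3.3), with p adjusted by Benjamini-Hochberg over all tested genes; SE is the absolute log2 fold change over the root of F. DESeq2 1.42.0 and limma 3.58.1 were alternatives, with other normalizations, filters, the replicate block and each sample left out. Log2 excess used a prior count of 2.

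The members and the 24 gene lists were chosen with earlier results of these data known. Besides the members, genes were named as the most abundant of a list, as its first listed markers (at most 3), as the 10 most alike, or as neighbours of members; exceptions are stated. The alternatives to the comparison without ctrl-3 were added after the data were seen. Samples of a group may come from the same mouse, which was not stated, so p and SE measure the spread between samples and treat them as independent; they may be too small for a statement about mice.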

Additional observations from a re-analysis of the deposited data

How the results depend on the processing

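The fit of all 6 samples met the criterion of fold and p in 7 of the 9 granule genes tested. That count was 10 with no filter beyond 1 read, where all 10 genes were tested. It was 2 with at least 10 counts in every sample (4 of the 10 genes tested), 0 in limma-voom and 0 with the replicate block. It was 0 to 10 when each sample was left out, lowest without 3%-Axitinib replicate 2 or 3 and 10 of 10 without 0%-Axitinib replicate 1 or 2. DESeq2 gave no p for any granule gene, so it gives no such count. The median log2 fold change, −7.09, was −8.71 to 0.61 on leaving out each sample, and 0.61 without ctrl-3. It was −3.02 in limma-voom and −1.57 with the replicate block. With that replicate block, S100a8 was at 0.23 and Lcn2 at 1.17, both turned upward. On leaving out each sample, the lowest and highest log2 fold were −6.05 and 1.98 for S100a8, −7.68 and 0.61 for S100a9, −9.02 and 1.76 for Mpo, −5.57 and 2.52 for Lcn2, −7.27 and 0.57 for Prtn3 and −8.83 and 0.61 for Ctsg, each upward only without ctrl-3. Members at an adjusted p of at most 0.05 were 0, and 0 to 1 on leaving out each sample, the 1 being without ctrl-3. Members lower in every 3%-Axitinib sample were 1, 0 with at least 10 counts, and 1 to 2 on leaving out each sample.

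The median log2 excess of ctrl-3, 7.94, was 6.89 with at least 10 counts and 7.69 to 9.05 on leaving out each other sample. The summed share of ctrl-3, 4.00%, was 2.75% of all its reads and 2.91% without S100a9. Over all genes, edgeR put 1 past an adjusted p of 0.05; this was 15 with no filter, 1960 in DESeq2, 2 in limma-voom, 2 with the replicate block and 0 to 1252 on leaving out each sample, the highest without ctrl-3.

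Without ctrl-3, alternatives chosen after seeing the data gave 1 granule gene past an adjusted p of 0.05 in edgeR, 2 with no filter, 2 in DESeq2, 0 in limma-voom, 0 with the replicate block and 0 to 1 on leaving out each further sample. Over all genes, 1252 became 2161 with no filter, 1917 with at least 10 counts, 3821 in DESeq2, 0 with the replicate block and 0 to 1572 on leaving out each further sample. Lcn2 kept its direction in 12 of 12 alternatives and its call in 6; with the replicate block it had 2.88 (adjusted p 0.102). The further gene of both counts of 2 was S100a8. Ctsg turned to −0.91 in limma-voom and Camp to 0.024 with the replicate block. On leaving out samples, Ngp ran from −1.09 to 0.77, Camp from −1.78 to 1.36, S100a9 from 0.03 to 1.10, S100a8 from 1.17 to 2.55, Lcn2 from 2.08 to 3.14, Ltf from −2.02 to −0.74, Prtn3 from 0.02 to 0.91, and Mpo from 0.81 to 7.04, the last with 0 reads in the 0%-Axitinib sample left. Ctsg ran from 0.56 to 1.18 in 3 of these 5 fits; without 3%-Axitinib replicate 1 or 3 it did not pass the filter and has no value. The causes of these changes were not tested.

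No pairing of samples by replicate number was seen in the data. The correlation of deviations from the group means between samples of the same number was 0.18, −0.12 and −0.17. Between samples of different numbers it was −0.22 to 0.21. With 3 samples per group, these values cannot exclude a pairing. Where leaving out samples left 1 in a group, it is assumed to vary like the others. Outside ctrl-3, some values of Mpo, Elane, Ctsg, Ngp, Camp and Ltf rest on 0 to 10 reads, and their counting intervals are wide; S100a8, S100a9 and Lcn2 had 45 to 934 reads.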
